A study of Mus musculus with 24 samples.

Results

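The aminoacyl tRNA synthetases are the enzymes that load each amino acid onto its tRNA before translation. They are described here as 36 genes, 20 for cytosolic and 16 for mitochondrial enzymes, of 16921 genes with a row in the tables. Genes were chosen by symbol alone, and a symbol ending in 2 marked a mitochondrial enzyme. All 36 had a row, and all 36 passed the filter on low counts that kept 15165 genes for testing. The cytosolic methionine enzyme, Mars1, carries the older symbol Mars in the tables.

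The study profiled kidney cortex RNA of 22 month old male mice of C57BL6/J background. Wild type (WT) mice and FGF21 KO mice, which lack a hormone secreted under protein restriction, were fed casein diets from 3 months of age with free access to food. The normal protein diet (NP) held 20% casein and the low protein diet (LP) 5%. This gave 4 groups of 6 libraries, 1 per mouse: WT_NP, WT_LP, KO_NP and KO_LP. The labels do not say how the gene was deleted, and Fgf21 itself was not analysed here, so the genotype labels were not checked on the deleted gene.

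Cells keep separate pools of these enzymes. Cytosolic synthetases serve the ribosomes that translate nuclear mRNAs, and several of them sit together in a multisynthetase complex held by scaffold proteins. Mitochondrial synthetases are encoded in the nucleus, imported, and serve only the mitochondrial ribosomes, which make a few core subunits of the respiratory chain. The glycine gene Gars and the lysine gene Kars each give both the cytosolic and the mitochondrial enzyme, and the cytosolic Eprs protein charges both glutamate and proline. When amino acids are scarce, uncharged tRNA activates the kinase GCN2 and with it the transcription factor ATF4, and several cytosolic synthetase genes are known ATF4 targets. The proximal tubule of the kidney cortex is rich in mitochondria.

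Library totals ran from 8.47 to 21.1 M counts (median 15.0 M). Mitochondrially encoded genes took 26.4% to 30.5% of counts in the KO_NP libraries and 18.5% to 26.3% in the KO_LP libraries. In wild type they took 21.8% to 27.2% in WT_NP and 24.2% to 27.2% in WT_LP. All 12 proximal tubule markers were present in every library, with at least 279 counts each. Libraries WT_NP 1, KO_LP 4 and KO_LP 6 were high in immune, injury or adipocyte markers, and the KO diet counts are given with and without these 3. Others came close: the mean log2 CPM of tubular injury markers was 6.12 in WT_LP 3 and 6.15 in WT_NP 1, that of macrophage and dendritic cell markers was 6.09 in WT_LP 4, and that of B and plasma cell markers was highest in KO_LP 5 (6.50). These last 3 libraries were left out only one at a time.

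Expression is given in CPM, the count scaled to a common library total with TMM factors. QuantSeq reads come from the 3′ end of a transcript, so CPM was not divided by gene length, and levels of different genes are compared on that scale. Over the 24 libraries, cytosolic genes ranged from 8.78 CPM for Cars, the cysteine enzyme, to 110.9 CPM for Eprs, with a median of 40.6 CPM. Mitochondrial genes ranged from 2.65 CPM for Pars2, the proline enzyme, to 66.0 CPM for Iars2, the isoleucine enzyme, with a median of 13.0 CPM. The cytosolic enzymes were thus represented at higher levels as a class, although Iars2 stood above the cytosolic median. The smallest count of any member in any library was 26, for a mitochondrial gene, and 62 for a cytosolic one.

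In KO mice on the low protein diet 4 of 16 mitochondrial synthetase genes fell and no cytosolic gene was called, and the 4 calls were lost in several other fits given below. The log2 fold of LP versus NP was below 0 for 16 of 16 mitochondrial genes (median -0.18, from -0.44 to -0.02). Those that fell at an adjusted p under 0.05 (edgeR quasi-likelihood test, Benjamini-Hochberg over all genes) were Aars2, Rars2, Mars2 and Cars2. Among all 15165 genes tested, 3.58% were called lower and 3.59% higher in this comparison, and the median log2 fold was 0.03. Of the cytosolic genes 0 of 20 were called, with 11 above 0 and 9 below (median 0.02, from -0.20 to 0.29). At an unadjusted p under 0.05, 7 mitochondrial genes and 2 cytosolic genes were lower, and no member of either class was higher. Over all 15165 genes, 1811 were lower and 2425 higher at that unadjusted threshold, and 45.1% had a log2 fold below 0. In no member were the 6 KO_LP libraries all below the 6 KO_NP libraries, a pattern that 2.06% of all genes showed.

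**Figure D1:**
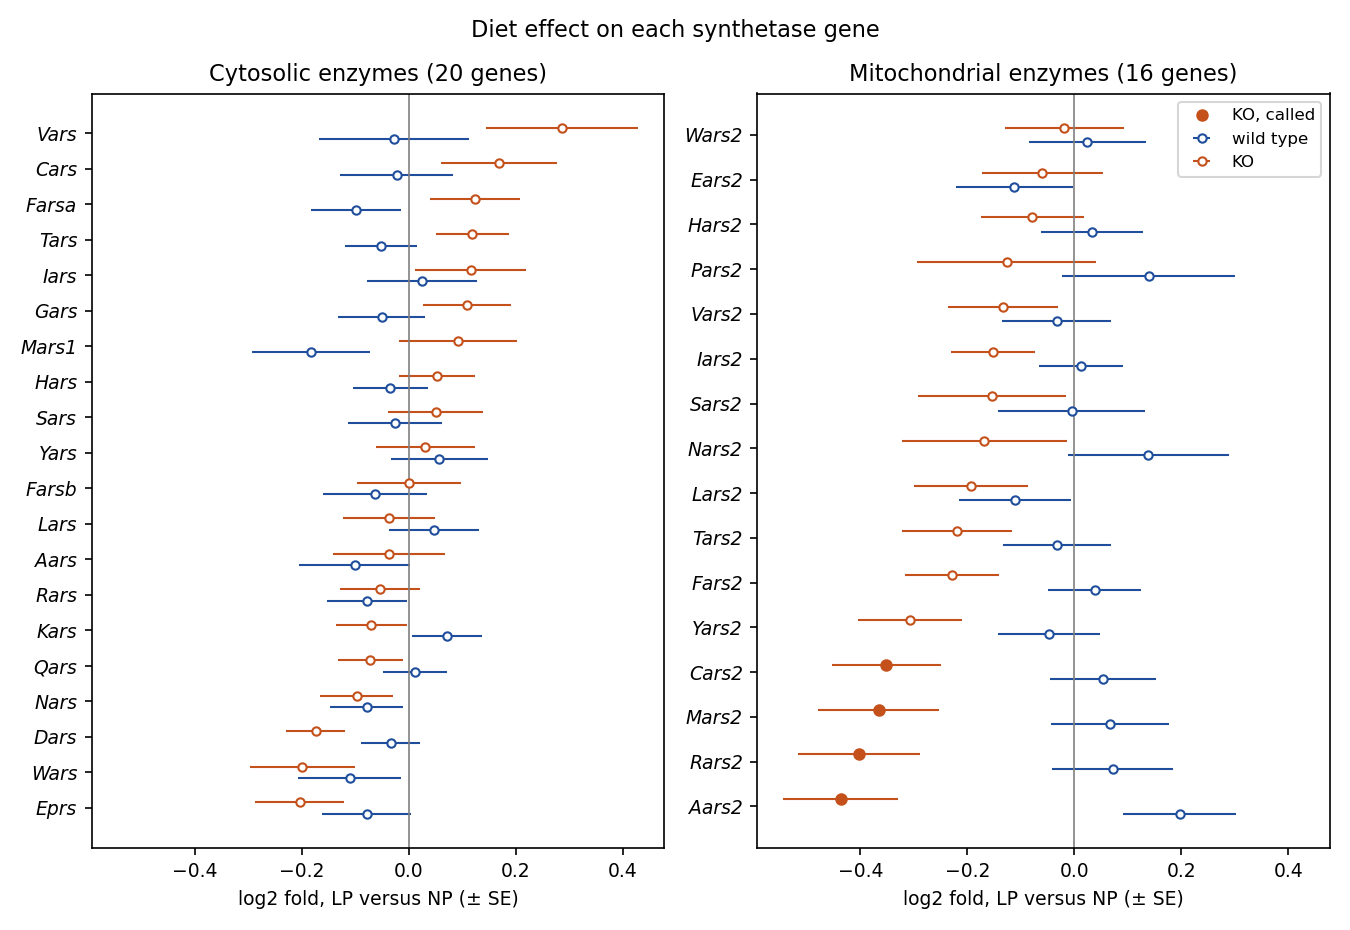
The log2 fold of LP versus NP (x axis, ± SE) is shown for each of 20 cytosolic and 16 mitochondrial synthetase genes, in wild type (blue) and KO (orange) kidney, with filled points for genes called at an adjusted p under 0.05. All 16 mitochondrial genes lie below 0 in KO, while the cytosolic genes lie on both sides of 0.

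Aars2 encodes the enzyme that charges mitochondrial tRNA with alanine (chr17:45506841-45520843, plus strand, GRCm38). Its lowest, median and highest levels were 7.67, 8.65 and 9.88 CPM in KO_NP and 5.27, 6.53 and 8.22 CPM in KO_LP. KO_LP library 1 was the only one of the KO_LP libraries above the lowest KO_NP library, and the groups otherwise did not overlap. The mean fell from 8.82 ± 0.810 CPM to 6.55 ± 0.962 CPM (SD, n = 6; log2 fold -0.44, SE 0.107, adjusted p = 0.0248, edgeR). In wild type mice the same levels were 5.42, 6.69 and 7.13 CPM on NP and 6.10, 7.30 and 8.55 CPM on LP. KO_NP thus had the highest median of the 4 groups for this gene.

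Rars2 encodes the mitochondrial arginine enzyme (chr4:34614957-34660167, plus strand). Its lowest, median and highest levels were 20.7, 23.9 and 26.0 CPM in KO_NP and 14.8, 16.6 and 24.5 CPM in KO_LP. Library 1 of KO_LP lay within the KO_NP range and the other 5 KO_LP libraries lay below its lowest value. The mean fell from 23.8 ± 1.77 CPM to 18.1 ± 3.70 CPM (SD, n = 6; log2 fold -0.40, SE 0.114, adjusted p = 0.0393, edgeR). Wild type libraries spanned 17.6 to 22.8 CPM on NP (median 19.3) and 17.0 to 24.8 CPM on LP (median 20.6), and these groups overlapped.

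Mars2 encodes the mitochondrial methionine enzyme, which also supplies the methionyl tRNA that starts mitochondrial proteins (chr1:55237177-55248470, plus strand). The lowest, median and highest levels were 5.38, 6.00 and 7.60 CPM in KO_NP and 4.33, 4.66 and 5.80 CPM in KO_LP. KO_LP 6 alone reached into the KO_NP range, and 6 of 6 KO_LP libraries lay below the KO_NP mean. The mean fell from 6.32 ± 0.949 CPM to 4.89 ± 0.563 CPM (SD, n = 6; log2 fold -0.37, SE 0.113, adjusted p = 0.0497, edgeR). Its wild type levels were 5.05, 5.71 and 5.79 CPM on NP and 5.13, 5.63 and 7.24 CPM on LP, and these groups overlapped.

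Cars2 encodes the mitochondrial cysteine enzyme (chr8:11513977-11550783, minus strand). Its levels were 13.5, 15.2 and 15.7 CPM in KO_NP and 8.97, 11.6 and 14.0 CPM in KO_LP, given as lowest, median and highest. Library 3 of KO_LP overlapped the KO_NP range, and KO_LP 6 was the lowest of all 24 libraries. The mean fell from 14.8 ± 0.880 CPM to 11.6 ± 1.61 CPM (SD, n = 6; log2 fold -0.35, SE 0.102, adjusted p = 0.0408, edgeR). In wild type the levels were 12.3, 13.8 and 18.1 CPM on NP and 12.3, 14.6 and 16.8 CPM on LP, and the groups overlapped. The last 500 bases of the Cars2 transcript share a stretch with Naxd, a metabolite repair gene on the opposite strand, and whether counting used strand is not given in the sources used here. Naxd itself stood at 46.7 ± 4.24 CPM in KO_NP and 43.6 ± 6.69 CPM in KO_LP (log2 fold -0.10, SE 0.0975, adjusted p = 0.521).

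**Figure D2:**
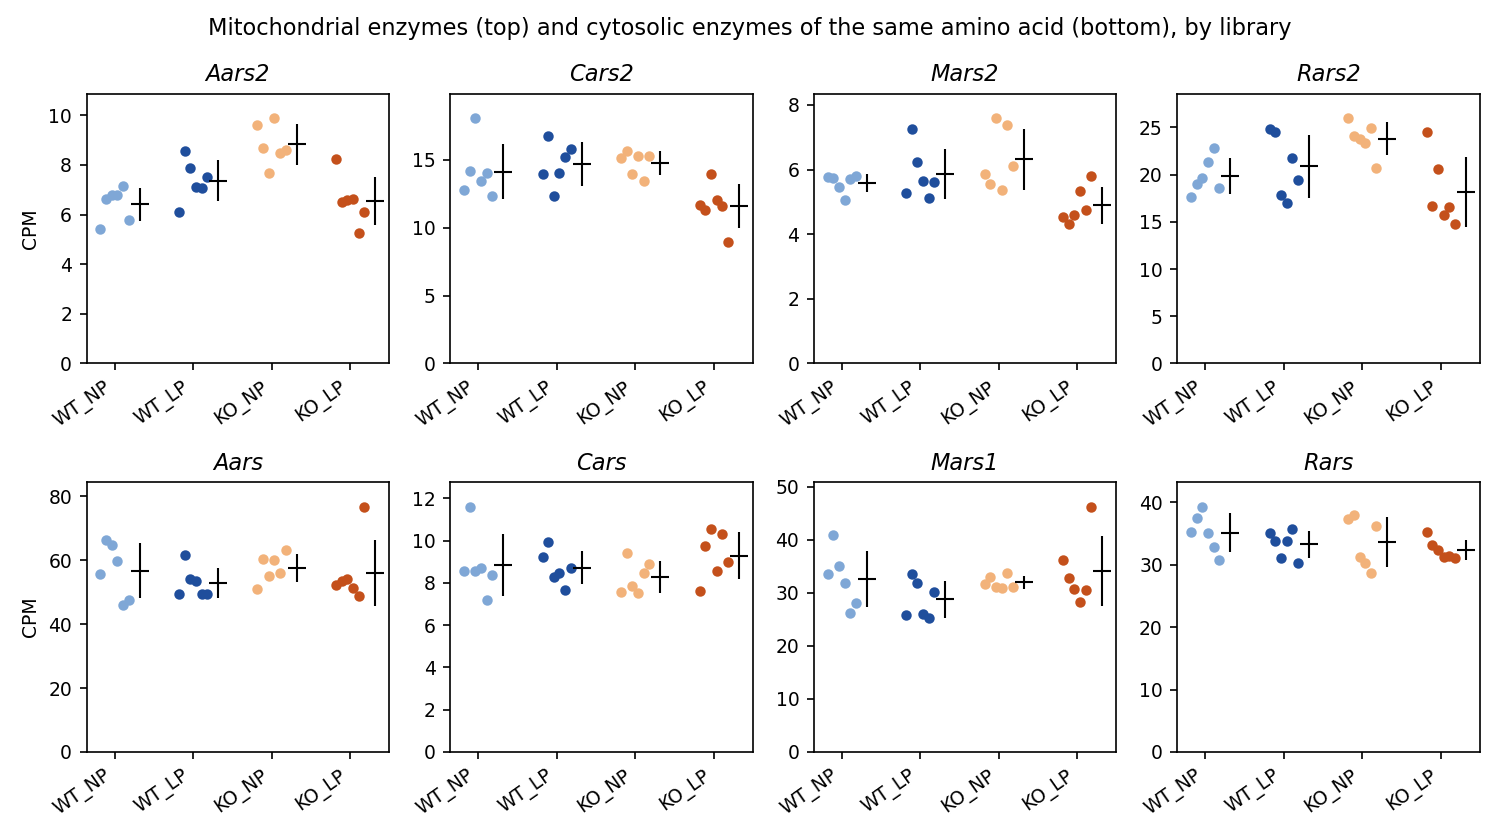
CPM of each library (y axis, from 0) by group is plotted for the 4 mitochondrial synthetase genes that fell in KO on LP (top) and for the cytosolic genes of the same amino acids (bottom), with the mean ± SD of 6 libraries beside the points. The KO_LP points of Aars2, Cars2, Mars2 and Rars2 sit mostly below the KO_NP points, while those of Aars, Cars, Mars1 and Rars overlap them.

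These calls lay close to the threshold: with each of the 24 libraries left out in turn, Aars2 was called in 21 fits, Rars2 and Cars2 in 15 each and Mars2 in 4. The number called lower was 0 without KO_NP 4, KO_NP 5 or KO_LP 4, 1 without KO_NP 1, KO_LP 2 or KO_LP 5, and 2 without KO_NP 2, KO_NP 3, KO_NP 6 or KO_LP 6, while 15 or 16 of the 16 genes stayed below 0 in all 24 such fits. Calls over all genes moved too: the share called lower, 3.58% with all libraries, ran from 0.522% (without KO_NP 5) to 6.04% (without KO_LP 1), and was 0.55% without KO_LP 4 and 1.43% without KO_NP 4. With WT_NP 1, KO_LP 4 and KO_LP 6 left out together, no synthetase gene was called, 15 of 16 mitochondrial genes were below 0 and the median was -0.13. In that fit 0.163% of all genes were called lower and 0.0718% higher, so calls were lost across the whole table.

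Among the other 12 mitochondrial genes none passed the test. Yars2, the tyrosine enzyme, came nearest: its levels were 16.5, 19.2 and 20.5 CPM in KO_NP and 13.9, 14.7 and 18.5 CPM in KO_LP (log2 fold -0.31, SE 0.0972, adjusted p = 0.0534). All 6 KO_LP libraries lay below the KO_NP mean of Yars2, and the groups overlapped. Fars2, the phenylalanine enzyme, stood at 33.1 ± 2.36 CPM in KO_NP and 28.3 ± 3.74 CPM in KO_LP (log2 fold -0.23, SE 0.0876, adjusted p = 0.0951), and Tars2, the threonine enzyme, at 13.6 ± 1.33 CPM and 11.7 ± 1.67 CPM (log2 fold -0.22, SE 0.103, adjusted p = 0.165). The remaining 9 genes had log2 folds between -0.19 for Lars2, the leucine enzyme, and -0.02 for Wars2, the tryptophan enzyme. Lars2 stood at 22.8 ± 2.62 CPM in KO_NP and 20.0 ± 3.55 CPM in KO_LP (adjusted p = 0.238). The mitochondrial rRNA genes were at 5456 ± 1373 CPM (mt-Rnr1) and 20749.8 ± 5039.6 CPM (mt-Rnr2) in KO_NP and at 4045 ± 953 and 15224 ± 3703 CPM in KO_LP. Neither rRNA gene was called (log2 folds -0.43 and -0.45, adjusted p = 0.119 and 0.107). The last 500 bases of the Lars2 transcript shared no stretch of at least 50 bases at 98% identity with another gene. The rest of the transcript and weaker likeness were not compared.

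No cytosolic gene passed the test in KO. Dars, which charges aspartate within the multisynthetase complex, came nearest, with lowest, median and highest levels of 37.2, 40.2 and 41.4 CPM in KO_NP and 33.6, 34.3 and 38.0 CPM in KO_LP (log2 fold -0.17, SE 0.0553, adjusted p = 0.0548). All 6 KO_LP libraries of Dars lay below the KO_NP mean, and the groups overlapped by less than 1 CPM. It was called with DESeq2 size factors in place of TMM (adjusted p = 0.0449), with DESeq2 (0.0170), with limma on the deposited normalized values (0.0454), and without KO_LP 1 (0.0311) or KO_LP 3 (0.0459). Eprs, which serves glutamate and proline, was at 120.1 ± 15.3 CPM and 104 ± 11.2 CPM (log2 fold -0.20, SE 0.0836, adjusted p = 0.117), and Wars, for tryptophan, at 12.2 ± 1.19 CPM and 10.7 ± 1.49 CPM (log2 fold -0.20, SE 0.0986, adjusted p = 0.189). Vars, for valine, had the largest log2 fold above 0, 0.29 (SE 0.143, adjusted p = 0.190), with 14.1 ± 1.21 CPM in KO_NP and 17.1 ± 3.63 CPM in KO_LP.

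The 8 cytosolic enzymes of the multisynthetase complex had 0 members called and 6 below 0 (median -0.06). Gars stood at 41.9 ± 2.64 CPM in KO_NP and 45.1 ± 6.87 CPM in KO_LP (log2 fold 0.11, SE 0.0821, adjusted p = 0.396), and Kars at 55.3 ± 4.78 CPM and 52.7 ± 2.70 CPM (log2 fold -0.07, SE 0.0662, adjusted p = 0.515). These dual genes thus showed no called change, and their log2 folds had opposite signs. The phenylalanine enzyme of the cytosol is built of 2 subunits, and their genes had log2 folds of 0.12 (Farsa, SE 0.0844) and 0.00 (Farsb, SE 0.0973), neither called.

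Genes were also paired by amino acid, giving 17 pairs in which Eprs and Fars2 each appear in 2. In KO the mitochondrial log2 fold of LP versus NP was below the cytosolic one in 14 of 17 pairs (median difference -0.27, from -0.52 for cysteine to 0.18 for tryptophan). In wild type it was below in 5 of 17 (median difference 0.08). For alanine the KO values were -0.44 for Aars2 and -0.04 for Aars, for arginine -0.40 for Rars2 and -0.05 for Rars, and for methionine -0.37 for Mars2 and 0.09 for Mars1. The exceptions were tryptophan and both Eprs pairs, where the cytosolic gene had the lower value.

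The same values were also averaged over each class in each library. The mean log2 CPM of the 16 mitochondrial genes was 3.53 ± 0.0838 in WT_NP, 3.56 ± 0.0809 in WT_LP, 3.66 ± 0.0334 in KO_NP and 3.44 ± 0.121 in KO_LP (SD, n = 6). KO_NP libraries formed a narrow band from 3.60 to 3.70, and KO_LP libraries spread from 3.32 to 3.63, with only KO_LP 1 inside that band. The mean of the 20 cytosolic genes stayed between 5.22 ± 0.0460 in WT_LP and 5.26 ± 0.0669 in WT_NP. The mitochondrial minus cytosolic difference was -1.73 ± 0.0808 in WT_NP, -1.66 ± 0.0874 in WT_LP, -1.57 ± 0.0504 in KO_NP and -1.79 ± 0.153 in KO_LP. Its lowest value, -2.03, belonged to KO_LP 6, which had the highest cytosolic mean of all 24 libraries (5.37). The lowest mitochondrial mean, 3.32, was that of KO_LP 4. These class means are descriptions and were not tested.

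**Figure D3:**
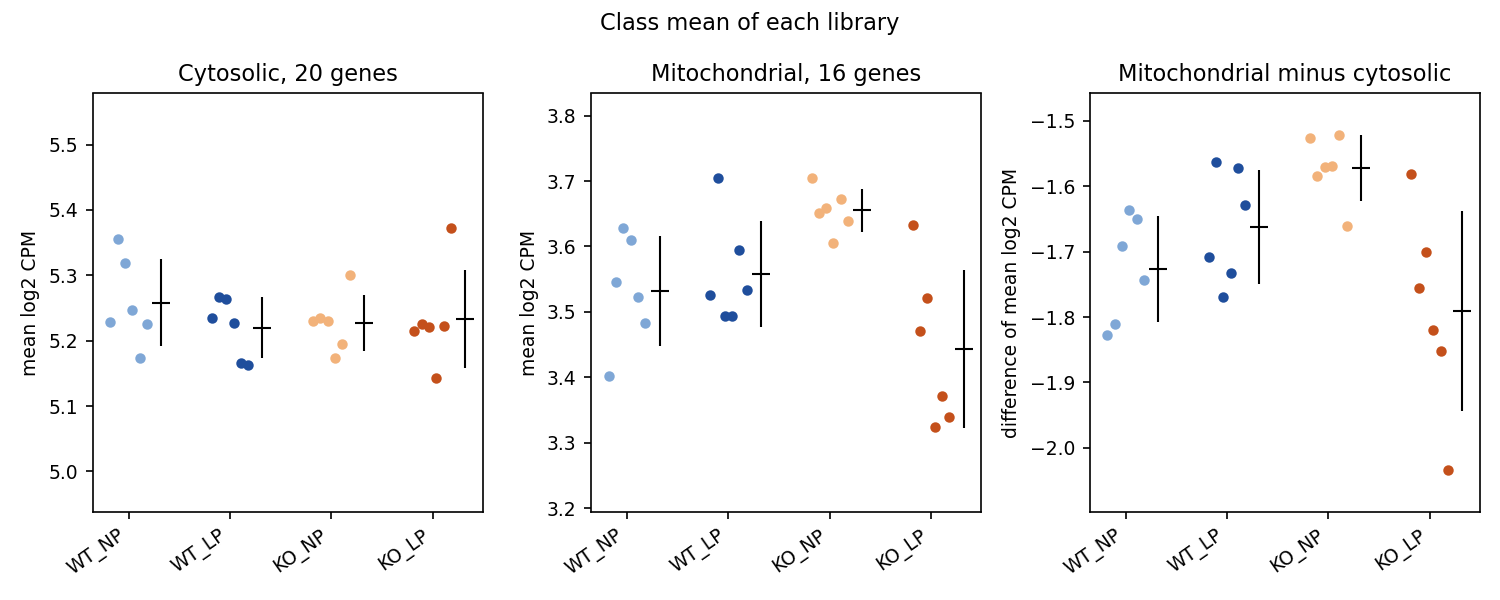
Each point is 1 library, placed by its mean log2 CPM over 20 cytosolic genes (left), over 16 mitochondrial genes (middle) and by their difference (right), with the mean ± SD of 6 libraries beside each group. The KO_NP libraries cluster at 3.60 to 3.70 in the mitochondrial panel and the KO_LP libraries reach from 3.32 to 3.63, while the cytosolic panel shows no such separation.

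Markers of kidney cell types moved in the same comparison. Of 12 proximal tubule markers, 2 fell (Slc34a1, a phosphate carrier, and Slc5a2, a glucose carrier), 1 rose (Slc5a1, a glucose carrier) and 11 had a log2 fold below 0 (median -0.32). Their summed level ran from 8447 to 10322 CPM in KO_NP and from 5321 to 9309 CPM in KO_LP, and in wild type from 7078 to 9758 CPM on NP and 6999.8 to 10326 CPM on LP. Of 11 tubular injury markers 7 rose and 0 fell (median 1.46; summed level 689 to 1099 CPM in KO_NP and 1389 to 4287 CPM in KO_LP). Of 11 macrophage and dendritic cell markers 4 rose and 0 fell (median 0.94; 371 to 682 CPM and 541 to 2472 CPM). The B and plasma cell markers had 9 of 9 tested genes above 0 and 0 called (median 1.65; 1401 to 3855 CPM and 1488 to 22007 CPM). Of the T and NK cell markers 9 of 9 were above 0 and 1 rose (median 1.23; 15.4 to 39.9 CPM and 29.4 to 160.9 CPM). Fibroblast markers had 6 of 6 above 0 (median 0.45) and collecting duct markers 6 of 6 below 0 (median -0.16), with 0 called in either list. Of 5 podocyte markers 1 rose (Wt1, log2 fold 0.70, SE 0.146, adjusted p = 0.0156, edgeR) and 3 were above 0 (median 0.08). Thick ascending limb and distal tubule markers had 5 of 7 below 0 (median -0.20, 0 called). Endothelium markers had 4 of 6 above 0 (median 0.06, 0 called), and adipocyte markers 2 of 2 tested (median 1.06, 0 called). Cd79a, a B cell marker, and the adipocyte markers Adipoq, Cidec and Cidea were each at 0 in at least 1 library. The other lists given here had no marker at 0. Without WT_NP 1, KO_LP 4 and KO_LP 6 no gene of these lists was called, and the medians were -0.25 for proximal tubule, 0.87 for injury, 0.66 for macrophage and dendritic cell, 0.89 for T and NK cell, 1.60 for B and plasma cell, 0.25 for fibroblast and -0.23 for collecting duct markers. For the podocyte, thick ascending limb and distal tubule, endothelium and adipocyte lists the medians were then 0.08, -0.13, -0.02 and 0.23. The part of these cell types in the synthetase values was not tested. In bulk tissue, fewer cells of a type and less RNA per cell cannot be told apart. With the mean of the proximal tubule markers as a covariate, a fit added after seeing the data, no synthetase gene was called, and neither was any other of the 15165 genes. The covariate itself had a mean log2 CPM of 8.93 ± 0.117 in KO_NP and 8.51 ± 0.381 in KO_LP. The fit therefore cannot separate the diet from the covariate. In that fit 10 of 16 mitochondrial genes were below 0 and their median was -0.09. The log2 fold was then -0.36 for Aars2 and -0.47 for Mars2, and -0.17 for Cars2 and -0.19 for Rars2.

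In wild type mice the diet comparison called no synthetase gene, and 0% of all genes were called in either direction (0 of 15165; 580 had an unadjusted p under 0.05). The cytosolic genes had 15 of 20 values below 0 (median log2 fold -0.04, from -0.18 to 0.07) and the mitochondrial genes 10 of 16 above 0 (median 0.03, from -0.11 to 0.20), beside a median of -0.01 over all genes. No member had an unadjusted p under 0.05. Aars2 was the mitochondrial gene with the smallest p, at 6.42 ± 0.661 CPM on NP and 7.37 ± 0.830 CPM on LP (log2 fold 0.20, 95% interval -0.01 to 0.40, adjusted p = 1.0). Ears2, the glutamate enzyme, and Lars2 followed, with log2 folds of -0.11 (95% interval -0.33 to 0.10) and -0.11 (-0.32 to 0.10). The cytosolic gene with the smallest p was Mars1, at 32.6 ± 5.25 CPM on NP and 28.8 ± 3.53 CPM on LP (log2 fold -0.18, 95% interval -0.40 to 0.03). Farsa and Nars, the asparagine enzyme, had log2 folds of -0.10 (-0.26 to 0.07) and -0.08 (-0.21 to 0.05).

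Whether the diet effect differed between genotypes was tested as the LP effect in KO minus the LP effect in WT. No synthetase gene was called, and neither was any other gene (0% of 15165), although 2430 genes had an unadjusted p under 0.05. The difference was below 0 for 15 of 16 mitochondrial genes (median -0.22) and for 8 of 20 cytosolic genes (median 0.06), beside a median of 0.03 over all genes. At an unadjusted p under 0.05, 5 mitochondrial genes and 0 cytosolic genes differed. Aars2 had the largest difference (log2 fold -0.63, SE 0.15, adjusted p = 0.158), and it was called by DESeq2 (adjusted p = 0.0347). For Rars2 the values were log2 fold -0.47, SE 0.161, adjusted p = 0.215, and for Cars2 log2 fold -0.40, SE 0.142, adjusted p = 0.220. The cytosolic genes with the smallest p were Farsa (0.22, adjusted p = 0.355), Tars, the threonine enzyme (0.17, 0.374), and Dars (-0.14, 0.374). The fall of the 4 called mitochondrial genes in KO is therefore not shown to differ from wild type at the threshold used.

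The genotypes were then compared on each diet, with the KO_NP and KO_LP libraries shared with the diet comparison above. On the normal diet Aars2 rose in KO, and no other member was called. It was at 6.42 ± 0.661 CPM in WT_NP and 8.82 ± 0.810 CPM in KO_NP (log2 fold 0.46, SE 0.106, adjusted p = 0.0423, edgeR). The highest WT_NP library was at 7.13 CPM and the lowest KO_NP library at 7.67 CPM, so the groups did not overlap, a pattern that 0.778% of all genes showed in this direction. Over all genes 0.343% were called higher and 0.231% lower. The call was lost in 17 of 24 fits that left out 1 library, including those without WT_NP 1 (adjusted p = 0.108) or KO_NP 1 (0.114), with the log2 fold between 0.41 and 0.51. Of the mitochondrial genes 13 of 16 were above 0 (median 0.10), and of the cytosolic genes 6 of 20 (median -0.06; all genes -0.02).

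Iars2 was at 62.0 ± 7.13 CPM in WT_NP and 73.3 ± 3.17 CPM in KO_NP (log2 fold 0.24, SE 0.0786, adjusted p = 0.170), and Sars2, the serine enzyme, at 4.28 ± 0.523 CPM and 5.43 ± 0.993 CPM (log2 fold 0.34, SE 0.138, adjusted p = 0.288). In both, all 6 KO_NP libraries exceeded the WT_NP mean, and the groups overlapped. Iars2 shares part of its transcript end with Rab3gap2, a gene on the opposite strand that stood at 9.87 ± 0.781 CPM in KO_NP. Ears2 had a value on the other side of 0, at 8.01 ± 0.896 CPM in WT_NP and 6.74 ± 0.793 CPM in KO_NP (log2 fold -0.25, SE 0.111, adjusted p = 0.350). The cytosolic genes with the smallest p were Lars, the leucine enzyme (log2 fold 0.18, SE 0.0853, adjusted p = 0.392), Nars (log2 fold -0.12, SE 0.0680, adjusted p = 0.494) and Vars (log2 fold -0.23, SE 0.142, adjusted p = 0.534).

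On the low protein diet no member was called between genotypes, while 1.35% of all genes were called higher and 1.59% lower in KO. Of the mitochondrial genes 13 of 16 were below 0 (median -0.13) and of the cytosolic genes 10 of 20 (median 0.00; all genes 0.02). Cars2 came nearest, at 14.7 ± 1.59 CPM in WT_LP and 11.6 ± 1.61 CPM in KO_LP (log2 fold -0.34, SE 0.101, adjusted p = 0.0631), and all 6 KO_LP libraries lay below the WT_LP mean. DESeq2 called it (adjusted p = 0.0303), as did edgeR without WT_NP 3 (0.0429), WT_LP 3 (0.0326) or KO_LP 3 (0.0385). Mars2 (log2 fold -0.26, SE 0.113, adjusted p = 0.190) and Yars2 (log2 fold -0.26, SE 0.0966, adjusted p = 0.120) followed. The cytosolic genes with the smallest p were Kars (log2 fold -0.17, SE 0.0659, adjusted p = 0.137), Mars1 (log2 fold 0.25, SE 0.111, adjusted p = 0.201) and Nars (log2 fold -0.14, SE 0.0681, adjusted p = 0.254). Mars1 overlaps Ddit3, the stress factor CHOP, on the opposite strand, with a stretch shared in the last 500 bases.

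Partners of the synthetases were read in the same KO diet comparison. The 9 calls given for them and for the ATF4 list were all lost without WT_NP 1, KO_LP 4 and KO_LP 6, with adjusted p from 0.0814 (Pck2) to 0.186 (Guf1) and the sign of each log2 fold unchanged. The 3 scaffold genes of the multisynthetase complex had 0 members called (median log2 fold 0.01), and the smallest p belonged to Aimp2 (log2 fold 0.02, SE 0.0953, adjusted p = 0.916). Of 11 other charging and editing enzymes 0 rose and 2 fell, and 10 were below 0 (median -0.20). Gatb, a subunit of the mitochondrial amidotransferase that makes glutaminyl tRNA, which has no synthetase of its own in mouse mitochondria, was at 37.3 ± 4.52 CPM in KO_NP and 26.9 ± 4.76 CPM in KO_LP (log2 fold -0.47, SE 0.134, adjusted p = 0.0391). Ppa2, the mitochondrial pyrophosphatase that removes the byproduct of charging, was at 163 ± 9.88 and 125 ± 23.3 CPM in the same groups (log2 fold -0.39, SE 0.112, adjusted p = 0.0402).

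Of the 10 tested mitochondrial translation factors 10 were below 0 (median -0.28), 1 fell and 0 rose. The member that fell was Guf1, an elongation factor of the mitochondrial ribosome, at 29.5 ± 3.02 CPM in KO_NP and 24.1 ± 3.33 CPM in KO_LP (log2 fold -0.30, SE 0.0882, adjusted p = 0.0436). Tufm, which delivers charged tRNA to the mitochondrial ribosome, had a log2 fold of -0.38 (adjusted p = 0.0673). The 6 cytosolic elongation factors had 0 members called (median -0.05), with the smallest p for Eef1d (log2 fold 0.12, SE 0.0530, adjusted p = 0.134). The 9 tested genes of translation stress sensing had 0 called (median 0.03), with the smallest p for Eif2ak4, which encodes GCN2 (log2 fold 0.24, SE 0.101, adjusted p = 0.128).

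Genes of the ATF4 and amino acid response list had mostly higher values in KO on LP. Of its 31 tested genes 24 were above 0 in KO (median 0.62), 4 rose and 2 fell. The risers were the amino acid carriers Slc7a5 (log2 fold 1.40, SE 0.415, adjusted p = 0.0436) and Slc38a2 (log2 fold 0.62, SE 0.167, adjusted p = 0.0341), the mitochondrial folate enzyme Mthfd1l (log2 fold 0.72, SE 0.189, adjusted p = 0.0311) and the mitochondrial PEP carboxykinase Pck2 (log2 fold 0.50, SE 0.115, adjusted p = 0.0231). Those that fell were Shmt2, a mitochondrial serine enzyme (log2 fold -0.48, SE 0.116, adjusted p = 0.0236), and Cth, which makes cysteine (log2 fold -0.48, SE 0.136, adjusted p = 0.0392). Atf4 itself missed the threshold (log2 fold 0.36, SE 0.121, adjusted p = 0.0652). Without those 3 libraries the median of the ATF4 list was 0.23, with 24 of 31 above 0, and that of the mitochondrial translation factors was -0.20. In the 3 other pairwise comparisons no gene of any of these 6 lists was called. The median of the ATF4 list was 0.02 for diet in wild type, -0.21 for KO versus WT on NP and 0.18 for KO versus WT on LP, and the mitochondrial translation factors had -0.02, 0.12 and -0.16.

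**Figure D4:**
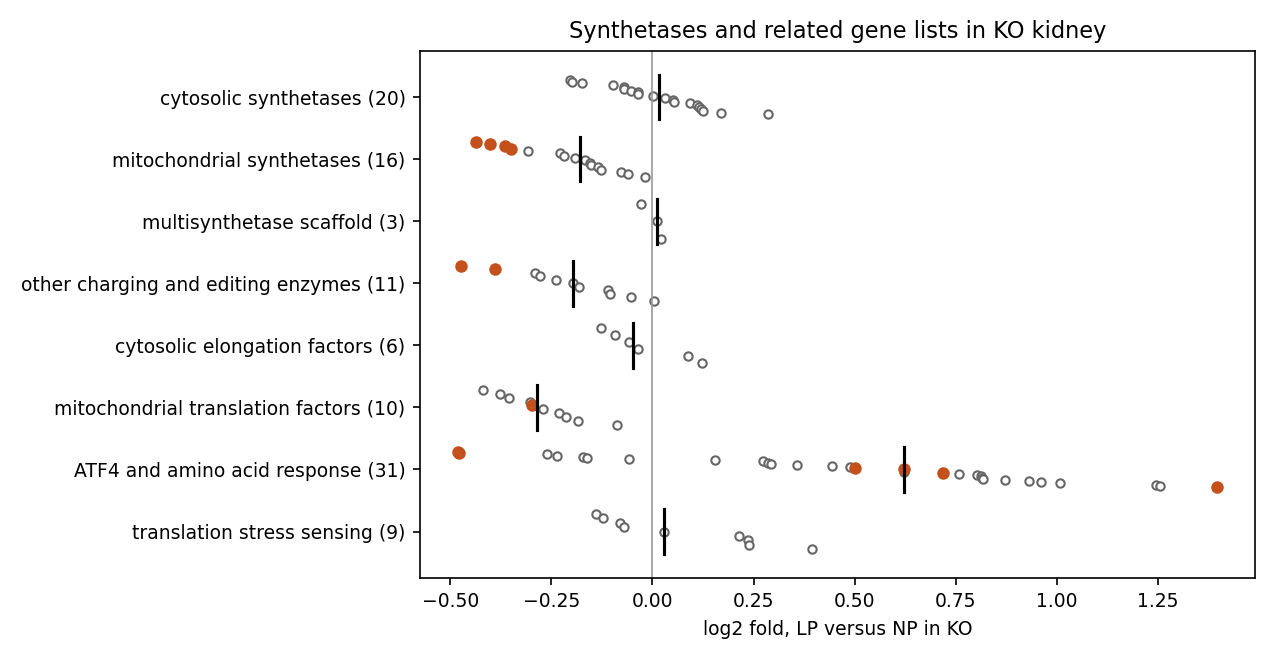
Each point is a gene, placed by its log2 fold of LP versus NP in KO (x axis), with filled points for genes called at an adjusted p under 0.05, a bar at the median of each list and the number of genes tested in brackets. The mitochondrial synthetases, other charging enzymes and mitochondrial translation factors lie mostly below 0, the cytosolic synthetases around 0, and the ATF4 list reaches furthest to the right.

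Promoter windows were searched because several cytosolic synthetase genes are known ATF4 targets. RefSeq windows (GRCm38.p6, 250 bases before to 50 after the start of transcription) were held for 27 members, 13 cytosolic and 14 mitochondrial. The letters TGATGNAA, a core of the C/EBP-ATF response element, were sought on both strands. They occurred in 5 of 13 cytosolic windows (Aars, Gars, Iars, Tars and Yars), in 0 of 14 mitochondrial genes, and in 4.51% of 27025 genes with a window. The letters CGCANGCGC, a core of the binding motif of nuclear respiratory factor 1, a regulator of nuclear genes for mitochondria, were added after seeing the data. They occurred in 6 of 13 cytosolic genes, in 4 of 14 mitochondrial genes (Iars2, Mars2, Vars2 and Wars2), and in 7.12% of all genes. In the windows below no match of one motif overlaps a match of the other. A match describes letters in the window and does not show binding. Windows are shown first for 3 cytosolic genes with the ATF4 letters and then for the 4 mitochondrial genes that fell in KO, 5′ to 3′, with matches to either motif in capitals and all else in lower case.
Aars (chr8:111033592-111033891, plus strand): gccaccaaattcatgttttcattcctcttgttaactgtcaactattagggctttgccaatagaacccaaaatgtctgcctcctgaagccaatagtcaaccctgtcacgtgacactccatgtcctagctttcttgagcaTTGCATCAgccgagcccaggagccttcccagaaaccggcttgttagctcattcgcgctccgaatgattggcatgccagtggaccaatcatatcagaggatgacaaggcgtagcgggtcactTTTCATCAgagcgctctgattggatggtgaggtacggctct
Iars (chr13:49681880-49682179, plus strand): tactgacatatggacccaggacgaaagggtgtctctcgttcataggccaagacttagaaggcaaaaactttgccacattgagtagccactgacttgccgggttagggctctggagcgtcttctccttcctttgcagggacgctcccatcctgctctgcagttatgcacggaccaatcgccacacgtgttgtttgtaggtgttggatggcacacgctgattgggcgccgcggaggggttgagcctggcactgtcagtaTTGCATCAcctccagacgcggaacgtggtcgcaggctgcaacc
Tars (chr15:11399609-11399908, minus strand): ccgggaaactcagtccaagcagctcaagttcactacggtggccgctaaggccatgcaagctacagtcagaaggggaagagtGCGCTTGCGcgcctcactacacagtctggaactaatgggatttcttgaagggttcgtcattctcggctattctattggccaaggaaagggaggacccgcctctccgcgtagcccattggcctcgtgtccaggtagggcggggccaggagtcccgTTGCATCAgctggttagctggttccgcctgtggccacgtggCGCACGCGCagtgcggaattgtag
Aars2 (chr17:45506582-45506881, plus strand): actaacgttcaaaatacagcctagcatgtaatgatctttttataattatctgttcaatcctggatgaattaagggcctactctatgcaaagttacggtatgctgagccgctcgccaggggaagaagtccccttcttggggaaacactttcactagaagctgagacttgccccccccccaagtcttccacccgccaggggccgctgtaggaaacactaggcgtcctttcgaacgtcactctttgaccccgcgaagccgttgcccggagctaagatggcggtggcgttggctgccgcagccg
Rars2 (chr4:34614707-34615006, plus strand): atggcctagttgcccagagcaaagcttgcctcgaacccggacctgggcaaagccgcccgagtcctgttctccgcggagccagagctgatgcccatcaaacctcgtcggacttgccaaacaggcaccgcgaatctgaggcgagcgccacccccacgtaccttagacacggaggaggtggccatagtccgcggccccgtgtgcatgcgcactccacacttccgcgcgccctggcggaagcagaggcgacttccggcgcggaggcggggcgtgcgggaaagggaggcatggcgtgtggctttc
Mars2 (chr1:55236927-55237226, plus strand): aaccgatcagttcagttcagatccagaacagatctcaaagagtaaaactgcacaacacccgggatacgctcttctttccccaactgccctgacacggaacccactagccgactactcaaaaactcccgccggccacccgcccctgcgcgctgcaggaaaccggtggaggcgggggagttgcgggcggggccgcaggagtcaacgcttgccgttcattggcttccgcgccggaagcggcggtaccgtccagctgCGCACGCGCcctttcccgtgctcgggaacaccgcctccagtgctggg
Cars2 (chr8:11550722-11551021, minus strand): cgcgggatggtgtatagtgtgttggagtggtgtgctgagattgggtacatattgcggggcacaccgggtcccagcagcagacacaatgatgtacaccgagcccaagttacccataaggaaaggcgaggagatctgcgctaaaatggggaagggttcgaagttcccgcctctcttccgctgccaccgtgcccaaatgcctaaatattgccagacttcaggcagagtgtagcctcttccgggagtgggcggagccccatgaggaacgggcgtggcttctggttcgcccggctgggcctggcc

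In these windows Aars held TGATGNAA at positions -112 and 10 (first base of the match, the start of transcription being 1), Iars at 8 and Tars at -15, and each read on the reverse strand. Tars also held CGCANGCGC at -169 and 27, and Mars2 at 4. The windows of Aars2, Rars2 and Cars2 held neither string. The 3 cytosolic genes with the ATF4 letters in view had KO diet log2 folds of -0.04 (Aars, SE 0.104, 57.6 ± 4.48 against 56.1 ± 10.3 CPM), 0.12 (Iars, SE 0.104, 22.5 ± 1.40 against 24.4 ± 3.90 CPM) and 0.12 (Tars, SE 0.0676, 46.2 ± 2.56 against 50.2 ± 3.01 CPM). None was called. In Tars all 6 KO_LP libraries lay above the KO_NP mean (adjusted p = 0.250), while in Aars 5 of 6 lay below it.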

How the data were processed

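Kidney cortex RNA of 24 mice was read by Lexogen QuantSeq, 50-base forward reads. The authors deposited raw counts of each gene. They also deposited normalized values, a signal found here to be the raw count over 1 size factor of each library. The submitters' processing notes name build GRCm38 and DESeq2 1.22.2. The aligner and counter: not given in the sources used here. No gene had a mean count under 3.

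Raw counts were analysed with edgeR 4.0.16 in R 4.3.3: filterByExpr on the 4 groups, TMM scaling, a robust quasi-likelihood fit of 4 group means to all 24 libraries, two-sided F tests and Benjamini-Hochberg adjustment over 15165 genes (called at adjusted p under 0.05; biological coefficient of variation 19.6%). SEs were derived from the log2 fold and its F statistic, and 95% intervals reach 1.96 SE to each side. Mean log2 CPM used a prior count of 2. CPM is given as mean ± SD over 6 libraries. Replicate numbers name libraries and pair nothing. No batch is labelled. Replicate pairs differed by more than counting error. Groups share libraries across the 5 comparisons.

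The members and gene lists were chosen with earlier results of these data known. Full values are given for every called member and for the 3 of each class with the smallest p in each comparison, and from each list for the called genes or the gene with the smallest p. Alternatives were DESeq2 size factors, no filter, a stricter filter (5 CPM in 6 libraries), a fit to the 12 compared libraries alone, limma 3.58.1 voom with quality weights, limma on log2 of the normalized values plus 1, DESeq2 1.42.0, 1 surrogate variable from sva 3.50.0, mitochondrially encoded genes left out, counts thinned to the smallest library and each library left out in turn. Added after seeing the data were fits without 3 libraries that stand apart and with proximal tubule markers as a covariate. The fit was tested on simulated counts whose set folds were larger than those of the called synthetase genes, so recovery of changes of their size was not tested. Transcript ends (last 500 bases, GENCODE M21) were compared with other genes by blastn 2.17.0 (at least 50 bases at 98% identity), and gene positions are from GENCODE M21. Python 3.11.15 with pandas 2.3.3, numpy 2.4.6 and matplotlib 3.10.9 made tables and figures.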

Additional observations from a re-analysis of the deposited data

Results flagged for a closer look

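Of 76 sets of 6 libraries checked (19 named genes in 4 groups), 2 held a library far from the other 5, where chance alone marks about 1 in 20 sets. Wars, the cytosolic tryptophan enzyme, stood at 14.63 CPM in KO_NP library 4, and the other 5 KO_NP libraries lay between 11.6 and 12.05 CPM. Cars2 stood at 18.09 CPM in WT_NP library 3, with the others between 12.3 and 14.2 CPM.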

How the results depend on the processing

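The median of the mitochondrial genes in KO on LP was below 0 in every fit run, while that of the cytosolic genes ran from -0.0217 to 0.0573 over the same 37 fits. Mitochondrial genes called lower for LP versus NP in KO numbered 4 in the fit reported, 0 with 1 surrogate variable, 1 with thinned counts, 0 without the 3 libraries that stand apart and 0 with the proximal tubule covariate. Over all genes these fits called 543, 1, 307, 25 and 0 lower, so calls were lost over the whole table too. Leaving out 1 library gave 0 to 5. The median was -0.0608 with the surrogate variable and -0.0873 with the covariate. Cytosolic genes called lower numbered 1 with DESeq2 size factors, 1 with limma on the normalized values and 1 with DESeq2 (Dars each time), and 0 to 1 with 1 library left out. For the difference of the diet effects, DESeq2 called 1 mitochondrial gene lower (Aars2), the mitochondrial median was -0.0770 with the surrogate variable and -0.1029 with the covariate, and the cytosolic median ran from -0.0044 (without KO_LP 6) to 0.0860 with 1 library left out. For KO versus WT on NP the count of mitochondrial genes called higher was 0 with only the 12 compared libraries, with the surrogate variable, with thinned counts, without the 3 libraries and with the covariate, and 0 to 1 with 1 library left out. For KO versus WT on LP, DESeq2 called 1 mitochondrial gene lower (Cars2), and leaving out 1 library gave 0 to 1. The causes were not tested. Among named genes, 336 values from other settings kept their side of the threshold, 24 lost and 5 gained a call, and none changed sign after being called. No paired analysis was possible because each library is from a different mouse and the replicate numbers pair nothing. Depth limits the lowest gene, Pars2, whose smallest count was 26.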

Other observations

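Several members overlap another gene on the opposite strand, and whether counting used strand is not given in the sources used here. This held for 13 of 36 members by exons, and 6 shared at least 50 bases of their transcript end with another gene. Aars alone also overlapped a gene on its own strand, Exosc6, with a stretch shared at the transcript end. Reads from that stretch cannot be assigned by strand, and Exosc6 was not tested. None of the neighbours that were tested was called for LP in KO. Ddit3, opposite Mars1, stood at 15.7 ± 2.57 CPM in KO_NP and 18.9 ± 3.13 CPM in KO_LP (log2 fold 0.27, SE 0.124, adjusted p = 0.151). Sgpp2, a lipid phosphatase gene opposite Farsb, was at 9.62 ± 2.05 and 10.8 ± 1.86 CPM (log2 fold 0.16, adjusted p = 0.451). Lyrm4, an iron-sulfur cluster gene opposite Fars2, was at 76.7 ± 8.49 and 68.6 ± 12.3 CPM (log2 fold -0.16, adjusted p = 0.371). Hars and Hars2 overlap each other head to head and had log2 folds of 0.05 and -0.08, neither called.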
